A study of Mus musculus with 18 samples.

Results

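Cholesterol 25-hydroxylase (Ch25h) and 7 genes of sterol synthesis and its control were followed in B16F10 mouse melanomas treated with a STING agonist. The 8 genes were taken by symbol from the count table, with Hmgcs1, Idi1, Fdft1, Sqle and Lss as enzymes and Srebf2 and Insig1 as regulators, and they are 8 of its 50600 gene rows. All 8 were among the 16927 genes with enough counts to be tested. The comparisons ask whether the sterol synthesis genes were lower in the tumors where Ch25h, an interferon-induced gene, was higher.

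Cholesterol is made from acetyl-CoA by the mevalonate pathway and then by the enzymes that cyclise squalene to lanosterol and trim it. The transcription factor SREBP2, encoded by Srebf2, drives the genes of this pathway when sterols in the endoplasmic reticulum membrane are low, and the INSIG proteins hold its escort SCAP there when sterols are high. Ch25h adds a hydroxyl group to cholesterol. Its product, 25-hydroxycholesterol, binds INSIG and keeps SREBP2 from being processed, and type I interferons induce Ch25h in myeloid cells.

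C57BL/6 mice carried subcutaneous B16F10 tumors on the right flank, and the agents were injected into the tumor (IT). CDN2, the cyclic dinucleotide that the sample titles call CL656, was given free at 20 µg or 100 µg, or at 0.1 µg loaded in extracellular vesicles (exoCDN2), with PBS and unloaded vesicles as controls. Tumors were collected 24 h after the last injection. PBS, unloaded EVs, exoCDN2, CDN2 20 µg and CDN2 100 µg were given once, and PBS, exoCDN2 and CDN2 20 µg were given again 3 days after the first dose. A ninth group received CDN2 over 2 doses, but its titles give no amount, and it is kept apart below. Each group held 2 tumors, 18 in all. The vesicles came from HEK293 cells, a human kidney line, that overproduce the vesicle glycoprotein PTGFRN. All tumors came from 1 cell line, and RNA of the whole tumor was measured, so fewer cells of a type and less RNA per cell cannot be told apart. The vesicle and free forms were given at different amounts of CDN2, so a comparison of exoCDN2 with CDN2 is one of doses as well as of carriers.

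The 18 libraries held 21608895 to 65983630 counts. Melanocyte genes were present in every tumor, with a summed level of 19919 to 22482 CPM (counts scaled to an equal library total) after 1 dose. The pair given 2 doses of CDN2 20 µg stood apart from the others. Its 2 tumors correlated at r = 0.943 over genes, with 27.8% of genes differing by more than 2-fold, against r of 0.975 to 0.991 and 5% to 13.5% in the other groups. Replicate 1 of that pair was also the shallowest library, and the next held 38671428 counts. For the 8 genes, the differences from PBS that rest on this pair are also given without each of its tumors in turn.

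Ch25h was higher in every tumor that received a labelled amount of CDN2, free or in vesicles, than in any PBS or unloaded EV tumor. Levels below are counts divided by DESeq2 size factors (normalised counts), replicate 1 first. After 1 dose the PBS tumors held 123.6 and 100.9 Ch25h counts and the unloaded EV tumors 91.3 and 54.5. The exoCDN2 tumors held 505.2 and 568.2, the CDN2 20 µg tumors 349.2 and 461.0, and the CDN2 100 µg tumors 358.8 and 387.2. After 2 doses PBS tumors held 43.8 and 45.0, exoCDN2 tumors 413.6 and 246.9, and CDN2 20 µg tumors 726.0 and 232.8. The 2 tumors given 2 doses of CDN2 of unlabelled amount, at 97.0 and 111.8, lay within the range of the single-dose PBS and unloaded EV tumors. Ch25h is a single-exon gene at chr19:34473778-34475164 on the minus strand (GRCm38), and 49 to 597 counts per library stand behind these values.

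**Figure D1:**
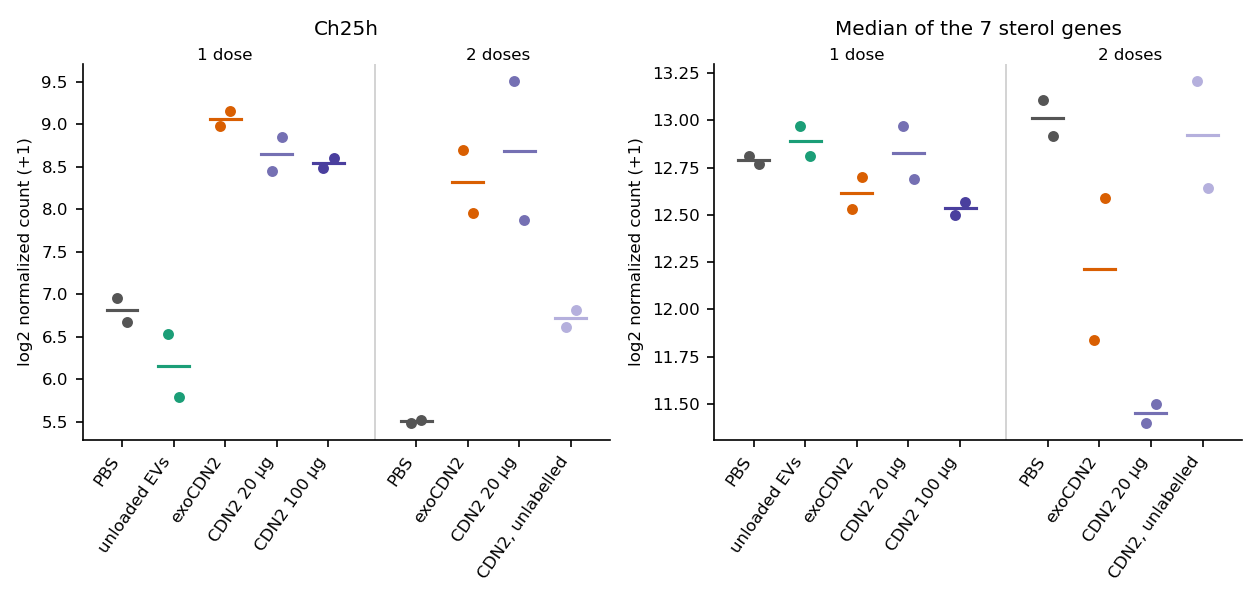
Ch25h and the median of the 7 sterol genes in each of the 18 tumors. The left panel shows Ch25h and the right panel the median of Hmgcs1, Idi1, Fdft1, Sqle, Lss, Insig1 and Srebf2, both as log2 (normalised count + 1) on the vertical axis, with groups along the horizontal axis, 1 point per tumor and a bar at the mean. After 1 dose Ch25h lies at 8.45 or more in the agonist tumors against 6.67 and 6.96 with PBS. The sterol median is lowest after 2 doses of CDN2 20 µg, at 11.40 and 11.50, against 13.11 and 12.92 with PBS.

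Differences were tested with edgeR's quasi-likelihood test in 1 fit over all genes. Below, a called gene is one with more than a 2-fold ratio between the groups and a Benjamini-Hochberg adjusted p below 0.05. After 1 dose Ch25h was 4.66-fold above PBS with exoCDN2 (log2 difference 2.22, SE 0.44, 95% interval 1.26 to 3.18, adjusted p = 0.016), in a comparison where 2.20% of all genes were called higher. With CDN2 20 µg it was 3.58-fold higher (log2 1.84, SE 0.44, adjusted p = 0.035; 2.26% of genes called higher). The log2 difference for CDN2 100 µg was 1.72 (95% interval 0.77 to 2.67), and with an adjusted p = 0.059 it was not called, where 1.82% of genes were. Both calls after 1 dose depended on all 4 tumors: leaving out any of them took the adjusted p to between 0.061 and 0.20 for exoCDN2 and between 0.056 and 0.29 for CDN2 20 µg. Unloaded EVs gave a Ch25h difference of -0.63 (95% interval -1.59 to 0.34, adjusted p = 1), with 0% of genes called. Against unloaded EVs, the carrier alone, exoCDN2 raised Ch25h 7.20-fold (log2 2.85, SE 0.46, adjusted p = 0.0039; 2.52% of genes called higher).

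After 2 doses Ch25h was 7.51-fold above PBS with exoCDN2 (log2 2.91, SE 0.46, adjusted p = 0.0013) and 10.3-fold above it with CDN2 20 µg (log2 3.37, SE 0.47, adjusted p = 0.00023). These 2 comparisons share the PBS tumors, and 8.87% and 20.0% of all genes were called higher in them. Without the shallow replicate 1 of the CDN2 20 µg pair the log2 difference was 2.37, and without replicate 2 it was 3.91. With the 4 PBS tumors of both schedules as 1 reference, the differences were 2.09 with exoCDN2 and 2.55 with CDN2 20 µg, both still called, and 0.40 with the unlabelled amount. The group of unlabelled amount had a log2 difference of 1.22 from the 2-dose PBS tumors (95% interval 0.28 to 2.16, adjusted p = 0.33, 18-tumor fit), in a comparison with 0.918% of genes called higher. The PBS tumors that serve as reference after 2 doses held fewer Ch25h counts than the single-dose ones (log2 -1.34, 95% interval -2.34 to -0.35, adjusted p = 0.27; 1.05% of genes called lower). Among the treated tumors themselves, Ch25h differed between 2 doses and 1 dose by -0.65 for exoCDN2 (95% interval -1.56 to 0.26, adjusted p = 0.34; 7.44% of genes called) and by 0.19 for CDN2 20 µg (-0.73 to 1.10, adjusted p = 0.75; 14.4% of genes called higher).

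Ranked by length-scaled level, Ch25h was highest with 1 dose of exoCDN2, at 9.09 ± 0.605 FPKM (SD, n = 2). CDN2 20 µg followed with 7.58 ± 5.15 after 2 doses and 6.97 ± 1.29 after 1, then CDN2 100 µg with 6.36 ± 0.345 and 2 doses of exoCDN2 with 5.80 ± 2.10. The means of the other 4 groups lay below 2 FPKM, from 1.95 ± 0.265 in single-dose PBS through 1.78 ± 0.181 for the unlabelled amount and 1.25 ± 0.438 with unloaded EVs to 0.763 ± 0.0181 in 2-dose PBS. Each of the 5 agonist groups overlapped with its neighbours in this order, and so did single-dose PBS with the unlabelled amount. The tumors did not overlap at the steps from exoCDN2 after 2 doses down to single-dose PBS, from the unlabelled amount to unloaded EVs, and from unloaded EVs to 2-dose PBS. Exchanging vesicles for free CDN2 gave no called Ch25h difference: exoCDN2 minus CDN2 20 µg was 0.38 after 1 dose (95% interval -0.53 to 1.29, adjusted p = 0.64) and -0.46 after 2 (-1.37 to 0.46, adjusted p = 0.41). The second of these turned to 0.52 without replicate 1 of the CDN2 20 µg pair, and was called at -1.02 (adjusted p = 0.019) without replicate 2. Nor did the test call a difference between the 2 free amounts, at -0.12 for 100 µg against 20 µg (95% interval -1.03 to 0.79, adjusted p = 0.91).

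Most other interferon-induced genes rose in the same tumors. Of a list of 11 (Isg15, Ifit1, Ifit2, Ifit3, Rsad2, Mx1, Oasl1, Irf7, Usp18, Cxcl10 and Bst2), 10 were called higher after 1 dose of exoCDN2, of CDN2 20 µg and of CDN2 100 µg, and 11 after 2 doses of exoCDN2 and of CDN2 20 µg. Their median log2 differences were 4.35, 4.61, 4.43, 4.84 and 6.51, beside medians of all genes between -0.024 and 0.006. The 2-dose differences were taken against a lower PBS level. Summed over the 11, PBS tumors held 653 and 681 CPM after 1 dose and 188 and 134 after 2. The exoCDN2 tumors held 10820 and 11295 after 1 dose and 3935 and 2961.5 after 2. The CDN2 20 µg tumors held 10675 and 15836 after 1 dose and 7737 and 7278 after 2. With the unlabelled amount 8 of 11 were called higher (median 2.38), where 0.918% of all genes were, although Ch25h was not. Their summed level in those tumors, 582 and 688 CPM, was near that of single-dose PBS and above that of 2-dose PBS. With the PBS tumors of both schedules as 1 reference, 0 genes were called in that comparison. With unloaded EVs 0 of 11 were called by edgeR. Of the 11, 7 were called lower in 2-dose than in single-dose PBS tumors, with a median of -2.21. Across all 18 tumors and 17109 other genes, the log2 level most like that of Ch25h by Pearson correlation belonged to Cd274, which encodes the checkpoint ligand PD-L1 (r = 0.976), then to Csf1, the macrophage growth factor M-CSF (0.976), the interferon-induced deconjugase Usp18 (0.971), Bmp2 (0.967) and Rtp4 (0.958). These correlations run over tumors of several treatments and describe shared group differences.

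None of the 7 sterol genes passed the test after 1 dose in the fit of all groups, in the tumors where Ch25h was already higher. By edgeR 0 of 7 were called in either direction with unloaded EVs, exoCDN2, CDN2 20 µg or CDN2 100 µg, where 0%, 2.62%, 3.14% and 2.44% of all genes were called, and by DESeq2 also 0 of 7. At an unadjusted p under 0.05 the number was 0, 0, 1 and 0. The 1 gene was Fdft1, which encodes squalene synthase, at 0.42 above PBS with CDN2 20 µg (95% interval 0.09 to 0.74, adjusted p = 0.18). The 2 single-dose PBS tumors were close to each other, and both exoCDN2 tumors lay below both of them for 5 of the 7 genes and above them for 1. With CDN2 100 µg the tumors lay below both PBS tumors for 6 genes, with CDN2 20 µg below for 2 and above for 1, and with unloaded EVs below for 2 and above for 2. Over all genes tested, 32.8% lay below both PBS tumors in the same way with exoCDN2, 32.4% with CDN2 100 µg, 28.7% with CDN2 20 µg and 22.1% with unloaded EVs. Above both PBS tumors lay 35.3%, 34.7%, 29.3% and 21.7% in the same order. In fits of only the 4 tumors compared, sterol genes passed the adjusted p as lower, though never by 2-fold. These were 5 of 7 with exoCDN2, from -0.17 (Srebf2, adjusted p = 0.044) to -0.35 (Insig1, adjusted p = 0.0054), and 4 of 7 with CDN2 100 µg, from -0.18 (Hmgcs1, adjusted p = 0.039) to -0.40 (Sqle, adjusted p = 0.0009). In those fits 16.3% and 15.7% of all genes were lower by the p alone, and with unloaded EVs and CDN2 20 µg 0 of 7 were. The median log2 difference of the 7 genes from PBS was -0.05 with unloaded EVs, -0.25 with exoCDN2, -0.01 with CDN2 20 µg and -0.19 with CDN2 100 µg. Single genes ranged from -0.38 (Insig1) to 0.04 (Idi1) with exoCDN2. Against unloaded EVs, where 2.95% of genes were called, exoCDN2 gave differences from -0.30 (Sqle) to -0.06 (Idi1), with 0 of 7 called by edgeR and 0 at an unadjusted p under 0.05. The intervals were wide enough to hold modest changes: for Hmgcs1 with exoCDN2 the interval was -0.56 to 0.42, and for Sqle it was -1.12 to 0.41.

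After 2 doses all 7 sterol genes had negative log2 differences from PBS with both agonist forms. Both treated tumors lay below both PBS tumors for 6 of the 7 genes with exoCDN2 and for 7 with CDN2 20 µg. Over all genes tested, 30.6% and 30.4% lay below both PBS tumors in these comparisons. With exoCDN2, Insig1 and Lss were called lower, in a comparison where 2.48% of all genes were, and Srebf2 and Fdft1 passed the adjusted p but not the 2-fold ratio (7.04% of all genes were lower by the p alone). With CDN2 20 µg, Hmgcs1, Sqle, Idi1, Insig1, Srebf2 and Lss were called lower, where 10.6% of all genes were, and Fdft1 passed the adjusted p alone (23.2%). The median log2 difference was -0.93 with exoCDN2 and -1.71 with CDN2 20 µg, beside medians over all genes of 0.006 and 0. The group of unlabelled amount, in which Ch25h was not called, had 0 of 7 called by edgeR (0 also at an unadjusted p under 0.05) and a median of -0.12, with 0.959% of genes called.

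**Figure D2:**
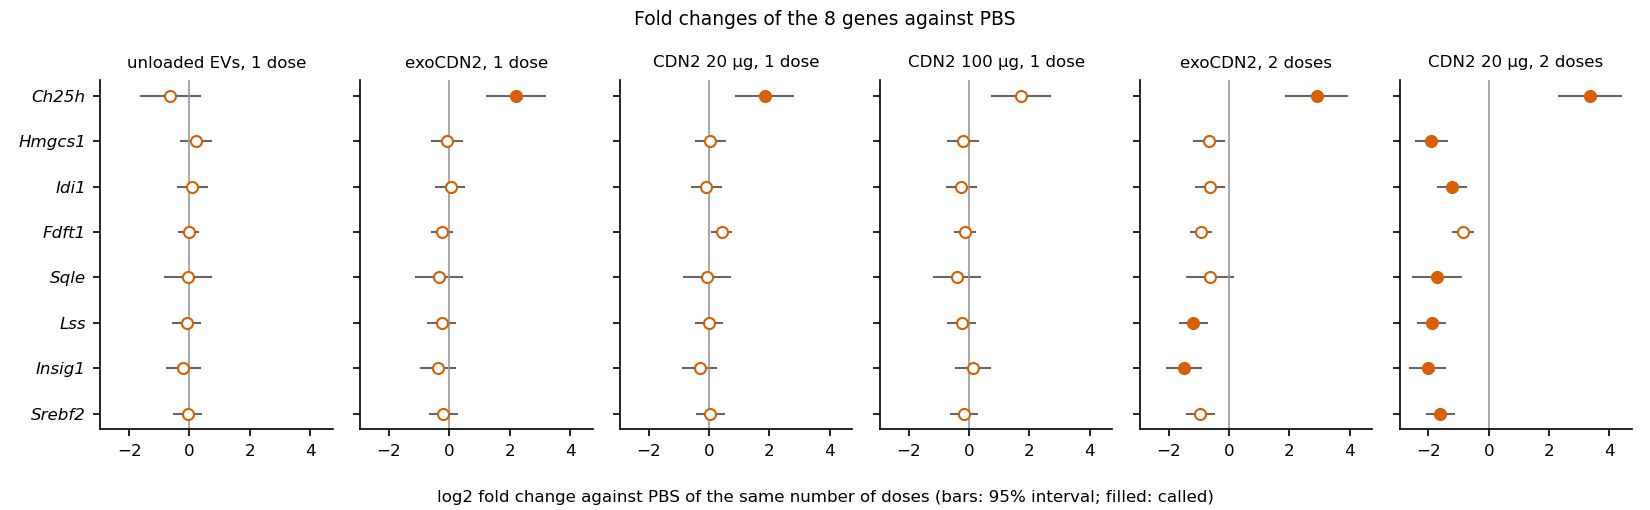
Log2 difference from PBS at the same number of doses for Ch25h and the 7 sterol genes. Each point is an edgeR estimate with its 95% interval on the horizontal axis, with genes on the vertical axis and 1 panel per treatment, each from 2 tumors against 2, and filled points are called genes. Ch25h lies to the right of 0 in every agonist group with a labelled amount, and the sterol genes lie near 0 after 1 dose and to the left of it after 2, reaching -2.02 for Insig1 with CDN2 20 µg.

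HMG-CoA synthase 1 (Hmgcs1, chr13:119690379-119708260, plus strand) makes the substrate of HMG-CoA reductase. It ranged from 6074 to 8757 normalised counts over the 10 single-dose tumors. After 2 doses it stood at 9609 and 7735 with PBS, 4522 and 6367 with exoCDN2, and 1812 and 2904 with CDN2 20 µg. Neither treated group overlapped PBS, and the CDN2 20 µg tumors were the lowest of all 18. The fall with CDN2 20 µg was 3.73-fold (log2 -1.90, SE 0.23, adjusted p = 0.00011), with -1.59 without replicate 1 of the pair and -2.37 without replicate 2. With exoCDN2 the difference was -0.65 (95% interval -1.15 to -0.16, adjusted p = 0.066) and not called.

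Isopentenyl-diphosphate isomerase (Idi1, chr13:8885501-8892451, plus strand) interconverts the pair of isoprene units from which squalene is built. Its 2-dose levels were 7584 and 4788 with PBS, 3099 and 4809 with exoCDN2, and 2699 and 2749 with CDN2 20 µg. The second exoCDN2 tumor lay within the PBS range, whereas both CDN2 20 µg tumors lay below it. Idi1 fell 2.32-fold with CDN2 20 µg (log2 -1.21, SE 0.22, adjusted p = 0.00093), a call lost at -0.87 without PBS replicate 1 and held at -1.18 and -1.31 without either CDN2 tumor, and its difference with exoCDN2 was -0.63 (adjusted p = 0.064).

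Squalene synthase (Fdft1, chr14:63145150-63179578, minus strand) catalyses the first step committed to sterols. It was at 3850 and 4907 normalised counts with 2 doses of PBS, 2030 and 2506 with exoCDN2, and 2719 and 2269 with CDN2 20 µg. Both treated groups lay below both PBS tumors and overlapped one another. The log2 differences were -0.93 with exoCDN2 (SE 0.15, adjusted p = 0.0014) and -0.85 with CDN2 20 µg (SE 0.15, adjusted p = 0.00088), ratios of 1.91 and 1.80 that stayed under the 2-fold limit. The CDN2 20 µg value was -0.97 without its replicate 1 and -0.81 without replicate 2. Of the 7 genes, Fdft1 was also the one with the smallest unadjusted p between the PBS groups, being higher after 2 doses by 0.59 (adjusted p = 0.10).

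Squalene epoxidase (Sqle, chr15:59315077-59331192, plus strand) adds oxygen to squalene and is a slow step of the pathway. Its 2-dose levels were 8865 and 11808 with PBS, 5729 and 7488 with exoCDN2, and 1684 and 4683 with CDN2 20 µg. The CDN2 20 µg tumors were the lowest of the 18 but differed widely, replicate 1 being far below replicate 2. Sqle fell 3.28-fold with CDN2 20 µg (log2 -1.71, SE 0.36, adjusted p = 0.0024), with -1.16 left without replicate 1 and -2.74 without replicate 2, both called. With exoCDN2 the difference was -0.63 (95% interval -1.39 to 0.14, adjusted p = 0.25).

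Lanosterol synthase (Lss, chr10:76531588-76557138, plus strand) closes the sterol rings. It was at 4014 and 5393 normalised counts with 2 doses of PBS, 1605 and 2502 with exoCDN2, and 1227 and 1360 with CDN2 20 µg. These 4 treated tumors were the lowest 4 of the 18. Lss fell 2.26-fold with exoCDN2 (log2 -1.18, SE 0.20, adjusted p = 0.0021) and 3.71-fold with CDN2 20 µg (log2 -1.89, SE 0.21, adjusted p = 6.2e-05). The CDN2 20 µg value was -1.81 without its replicate 1 and -2.06 without replicate 2. The exoCDN2 call was lost at -0.90 without its replicate 1 and at -0.95 without PBS replicate 2, where the ratio fell under 2.

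**Figure D3:**
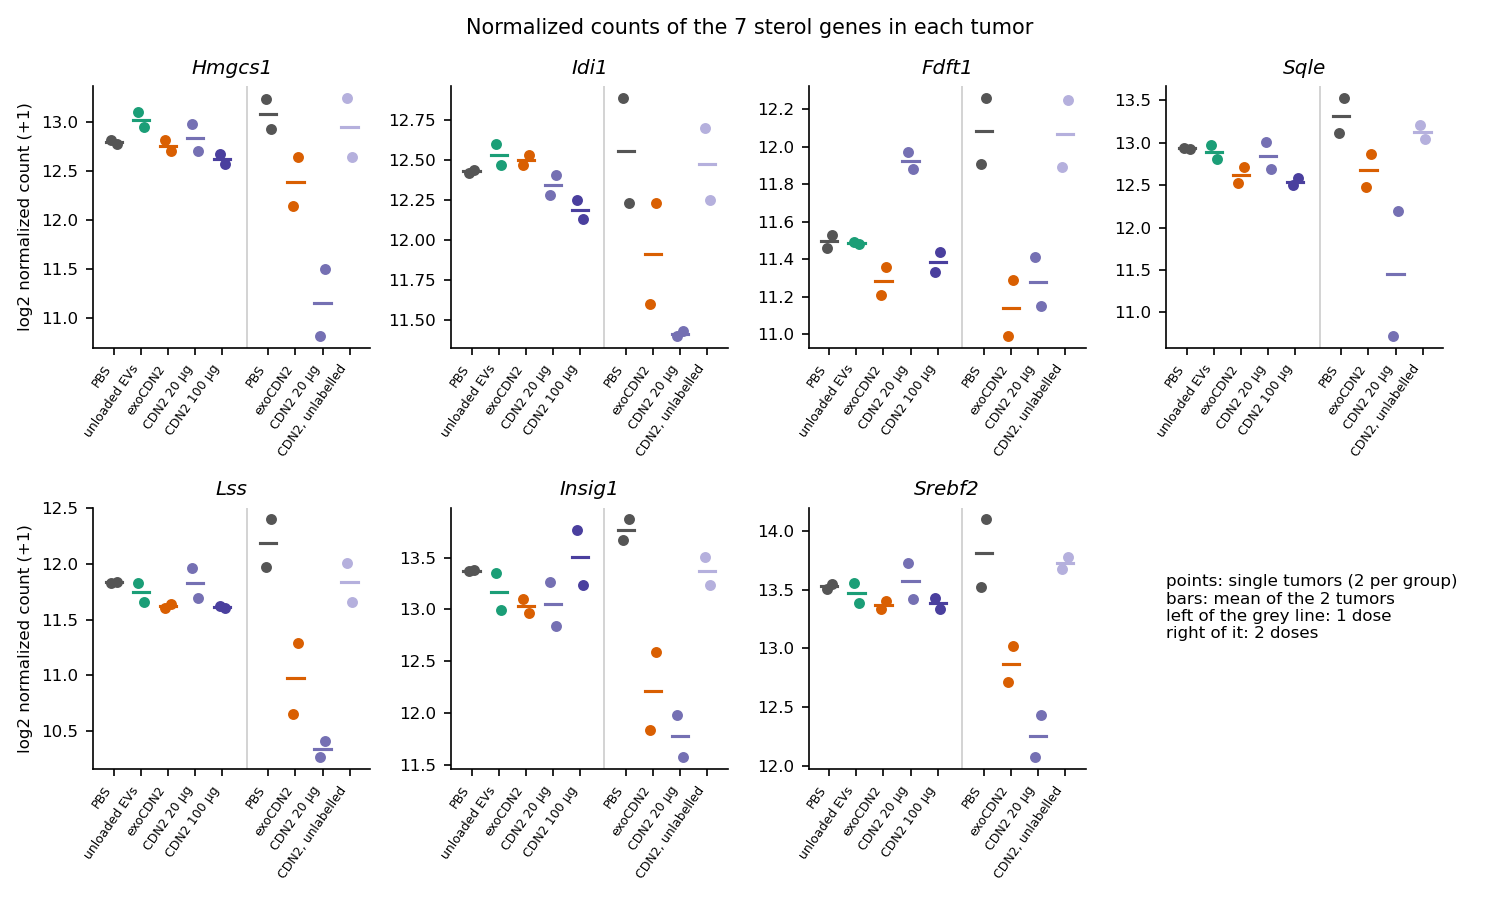
The 7 sterol synthesis and control genes in each tumor. Each panel plots 1 gene as log2 (normalised count + 1) on the vertical axis against the 9 groups, with 1 point per tumor and a bar at the group mean. The 2 tumors given 2 doses of CDN2 20 µg are below every PBS tumor in all 7 panels, and the exoCDN2 2-dose tumors lie between them and PBS for Hmgcs1, Sqle, Lss and Srebf2.

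Srebf2 (chr15:82147181-82205379, plus strand), the gene for SREBP2, is itself among the genes that SREBP2 activates. It was at 11777 and 17530 normalised counts with 2 doses of PBS, 6714 and 8322 with exoCDN2, and 4287 and 5536 with CDN2 20 µg. The treated tumors were again the lowest 4 of the 18, with CDN2 20 µg below exoCDN2. Srebf2 fell 3.04-fold with CDN2 20 µg (log2 -1.60, SE 0.21, adjusted p = 0.00014), with -1.42 and -1.89 without replicate 1 and replicate 2 of the pair. With exoCDN2 its log2 difference of -0.95 (SE 0.20, adjusted p = 0.0073) passed the p but at 1.93-fold not the ratio.

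Insig1 (chr5:28071363-28078662, plus strand) retains SCAP and SREBP2 in the endoplasmic reticulum and is also an SREBP2 target. Its 2-dose levels were 12998 and 14971 with PBS, 3677 and 6167 with exoCDN2, and 4045 and 3036 with CDN2 20 µg. Those 4 treated tumors were the lowest of the 18, and the 2 treatments overlapped. Insig1 fell 2.81-fold with exoCDN2 (log2 -1.49, SE 0.26, adjusted p = 0.0022) and 4.05-fold with CDN2 20 µg (log2 -2.02, SE 0.27, adjusted p = 0.00015). Both calls held when any single tumor of the comparison was left out, the CDN2 20 µg value being -2.22 without its replicate 1 and -1.91 without replicate 2. Insig2, its paralog, was at 0.09 with exoCDN2 and -0.11 with CDN2 20 µg, neither of them called. Per length, Insig1 was the most abundant of the 8 genes in PBS tumors, at 82.8 ± 0.968 FPKM after 1 dose and 108 ± 11.3 after 2, and Lss the least abundant of the 7 sterol genes, at 8.14 ± 0.0749 and 10.4 ± 2.20. The place of Lss depends on its summed exon length, the longest of the 8 at 10787 bases. In normalised counts of single-dose PBS tumors Lss, with a mean of 3650.9, stood above Fdft1, with 2889.3.

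The stretches before the starts of Hmgcs1, Srebf2 and Ch25h are shown because they hold the sterol regulatory element core or the cyclic AMP response element among the motifs searched. They are RefSeq sequences of GRCm38.p6, 5′ to 3′ on the gene's strand, cut at the first annotated start, and capitals mark the motif matches described after them.
Hmgcs1, chr13:119690101-119690350 on the plus strand: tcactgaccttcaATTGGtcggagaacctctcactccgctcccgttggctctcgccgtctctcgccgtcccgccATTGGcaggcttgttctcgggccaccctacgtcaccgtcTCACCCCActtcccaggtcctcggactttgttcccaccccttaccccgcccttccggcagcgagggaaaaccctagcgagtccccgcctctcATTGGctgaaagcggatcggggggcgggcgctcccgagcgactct
Srebf2, chr15:82147019-82147180 on the plus strand: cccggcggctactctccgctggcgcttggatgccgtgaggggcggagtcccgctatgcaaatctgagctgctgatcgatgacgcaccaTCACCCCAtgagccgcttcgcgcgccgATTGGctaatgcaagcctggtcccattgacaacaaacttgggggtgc
Ch25h, chr19:34475165-34475398 on the minus strand: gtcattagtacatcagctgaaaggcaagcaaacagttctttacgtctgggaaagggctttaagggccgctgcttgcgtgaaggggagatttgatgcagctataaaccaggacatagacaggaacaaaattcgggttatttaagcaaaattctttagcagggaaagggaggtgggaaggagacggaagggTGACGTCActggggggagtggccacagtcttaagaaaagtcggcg
Both strands were searched for the sterol regulatory element core TCACNCCA, the CCAAT box, the core of the interferon-stimulated response element (a pair of GAAA runs spaced by 2 bases) and the cyclic AMP response element TGACGTCA, in the 250 bases before the RefSeq start. The motifs were chosen after the promoters had been seen. Windows were at hand for 6 of the 8 genes, all but Sqle and Fdft1. TCACNCCA was in 2 of the 6 (and so in 2 of the 5 sterol genes read), from -137 to -130 in Hmgcs1 and from -162 to -155 in Srebf2, counted from the RefSeq start, and in 3.67% of 32851 mouse promoter windows. CCAAT, read as ATTGG on the gene's strand, was in 5 of the 6, all but Ch25h, and in 33.8% of all windows. The Idi1 matches, at chr13:8885561-8885565 and chr13:8885592-8885596, lay before the RefSeq start but after the first annotated start at 8885501. Ch25h held TGACGTCA from -61 to -54, as did 1.55% of windows, and 0 of the 6 held the interferon-stimulated response element core, against 2.98%. A match is only a run of letters, and binding was not measured here.

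The second dose was compared with the first directly, as the difference between the 2-dose and the single-dose contrast with PBS in 1 fit. For CDN2 20 µg all 7 sterol genes were called lower by this difference, where 5.16% of all genes were. It was -1.94 for Hmgcs1 (adjusted p = 0.0034), -1.88 for Lss (0.0027), -1.70 for Insig1 (0.0091), -1.65 for Srebf2 (0.0042), -1.63 for Sqle (0.037), -1.26 for Fdft1 (0.0036) and -1.12 for Idi1 (0.024). All 7 stayed below 0 without either of the 2-dose CDN2 20 µg tumors, with Sqle at -1.09 without replicate 1. The PBS and single-dose tumors of this contrast were not left out in turn. For exoCDN2 0 of 7 were called by edgeR, where 1.70% of genes were called lower, and 5 of 7 had an unadjusted p under 0.05. Its differences ran from -1.11 for Insig1 (adjusted p = 0.084) to -0.28 for Sqle (adjusted p = 0.81). The same difference for Ch25h was 1.53 with CDN2 20 µg (95% interval 0.17 to 2.88, adjusted p = 0.096; 11.7% of genes called higher) and 0.69 with exoCDN2 (-0.65 to 2.03, adjusted p = 0.57; 5.12%). With CDN2 20 µg the Ch25h value was 0.52 without replicate 1 of the 2-dose pair, and 2.06 and called without replicate 2.

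Without PBS in the contrast, 2 doses of CDN2 20 µg against 1 dose lowered Hmgcs1 by 3.15-fold, Lss by 2.87-fold, Srebf2 by 2.54-fold, Insig1 by 2.49-fold and Sqle by 2.35-fold, all called, where 6.36% of genes were called lower. Idi1 (-0.96, adjusted p = 0.006) and Fdft1 (-0.67, adjusted p = 0.0059) passed the p alone, by which 16.8% of genes were lower. For exoCDN2 the same contrast called 0 of 7, where 2.34% of genes were called lower, with 4 of 7 at an unadjusted p under 0.05 and Insig1 (-0.73, adjusted p = 0.086) and Lss (-0.57, adjusted p = 0.088) having the smallest p. The PBS tumors differed the other way, by 0.16 (Idi1) to 0.59 (Fdft1) after 2 doses, with 0 of 7 called by edgeR, 1 at an unadjusted p under 0.05, and 1.10% of genes called.

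Free CDN2 at 20 µg and exoCDN2 at 0.1 µg were set against each other at the same number of doses. After 1 dose 0 of 7 sterol genes were called by edgeR, where 0.608% of genes were, and 1 had an unadjusted p under 0.05. That gene was Fdft1, at -0.67 with exoCDN2 relative to CDN2 (95% interval -0.99 to -0.34, adjusted p = 0.057). After 2 doses Hmgcs1 was higher with exoCDN2 by 1.25 on the log2 scale (95% interval 0.75 to 1.75, adjusted p = 0.0031) and Sqle by 1.08 (0.31 to 1.86, adjusted p = 0.033), where 7.34% of genes were called higher. Lss (0.71, adjusted p = 0.019) and Srebf2 (0.66, adjusted p = 0.026) passed the p alone, by which 17.6% of genes were higher. Both calls were lost without replicate 1 of the CDN2 20 µg pair, leaving Hmgcs1 at 0.93 (adjusted p = 0.014, ratio under 2) and Sqle at 0.52 (adjusted p = 0.11), and without replicate 2 they were 1.71 and 2.09. Idi1 (0.59, 95% interval 0.12 to 1.06, adjusted p = 0.05), Insig1 (0.53, -0.03 to 1.09, adjusted p = 0.12) and Fdft1 (-0.08, -0.41 to 0.24, adjusted p = 0.68) were not called. Among single doses of free CDN2, 0 of 7 genes were called between 100 µg and 20 µg, where 0.455% of genes were, and Fdft1 had the smallest p (-0.54, adjusted p = 0.11).

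The rest of the cholesterol pathway was read from a list of 21 enzymes, 5 of which are among the genes above. After 1 dose 0 of the 21 were called in any of the 4 treatments by edgeR or by DESeq2, and 0 (unloaded EVs), 1 (exoCDN2), 2 (CDN2 20 µg) and 2 (CDN2 100 µg) had an unadjusted p under 0.05. After 2 doses of exoCDN2, 8 of 21 were called lower, 14 passed the adjusted p without a ratio limit, and 21 of 21 were below 0, with a median of -0.81. Of all genes, 2.48% were called lower there and 7.04% were lower by the p alone. The smallest p values were those of Tm7sf2, a sterol C14 reductase (-1.35, adjusted p = 0.00062), Acat2, the cytosolic acetoacetyl-CoA thiolase (-1.30, adjusted p = 0.00091), Fdft1 and Lss. After 2 doses of CDN2 20 µg, 15 of 21 were called lower, beside 10.6% of all genes, and 20 of 21 were below 0, with a median of -1.37. Lss, Lbr, the other sterol C14 reductase (-1.85, adjusted p = 7e-05), the C4 methyl oxidase Msmo1 (-1.92, adjusted p = 7.1e-05) and the lanosterol demethylase Cyp51 (-1.73, adjusted p = 8.8e-05) had the smallest p. The exoCDN2 count rested on single tumors: it was 1 without exoCDN2 replicate 1, 3 without PBS replicate 2, 12 without PBS replicate 1 and 13 without exoCDN2 replicate 2. For CDN2 20 µg it was 13 to 15 in the same exercise.

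The 6 enzymes not called with CDN2 20 µg, named after their values were seen, were Mvk (-0.41), Pmvk (0.24), Mvd (-0.12), Fdps (-0.30), Ebp (-0.41) and Fdft1. Of these Mvk, Pmvk, Mvd and Fdps act one after another between HMG-CoA reductase and Fdft1, apart from the Idi1 step. With exoCDN2 the same 4 were at -0.81, -1.01, -0.88 and -1.08, with Pmvk and Fdps called and the other 2 passing the adjusted p alone. Tested directly after 2 doses, 4 of the 21 enzymes were called higher with exoCDN2 than with CDN2 20 µg, where 7.34% of all genes were. They were Hmgcs1, Sqle, Lbr (1.06) and Hsd17b7 (1.02). Without replicate 1 of the CDN2 20 µg pair Hmgcs1 was at 0.93 and Sqle at 0.52. The phosphomevalonate kinase Pmvk was the 1 called lower (-1.26, adjusted p = 0.0037), where 12.0% of all genes were. Lbr, Hsd17b7 and Pmvk were not examined with a tumor left out.

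**Figure D4:**
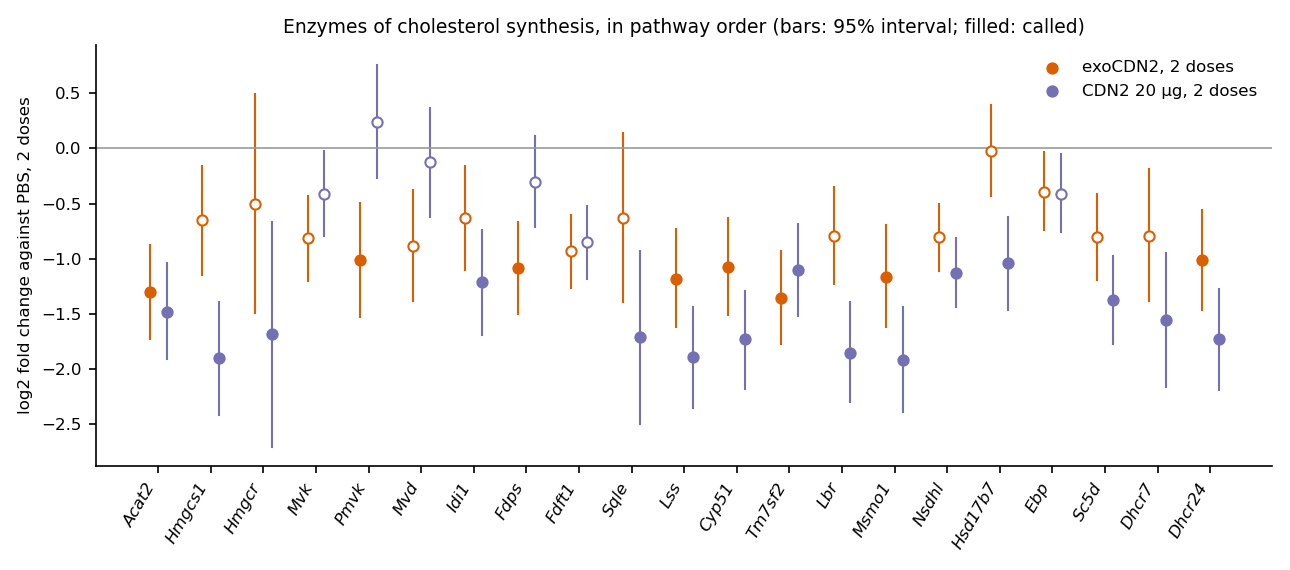
Log2 difference from PBS after 2 doses for the 21 cholesterol synthesis enzymes. Enzymes run in pathway order along the horizontal axis, and the vertical axis gives the edgeR log2 difference with its 95% interval for exoCDN2 and CDN2 20 µg, each from 2 tumors against 2, with filled points for called genes. All 21 exoCDN2 values lie below 0, with a median of -0.81, and the CDN2 20 µg values are lower for most enzymes but near 0 for Pmvk, Mvd and Fdps.

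Genes of SREBP control and sterol transport followed the 2-dose pattern in part. Of 9 (Srebf1, Srebf2, Scap, Insig1, Insig2, Mbtps1, Mbtps2, Stard4 and Tmem97), 1 was called lower with exoCDN2, Insig1, and 3 passed the adjusted p with no ratio limit, Insig1, Srebf2 and Tmem97 (-0.90, adjusted p = 0.0058). The median of the 9 was -0.46. Insig1 and Srebf2 are also among the 7 sterol genes already described. With CDN2 20 µg 4 were called lower, with a median of -0.95: Srebf2, Insig1, Mbtps1 (-1.25, adjusted p = 0.003), which encodes a protease that cleaves SREBPs, and the sterol carrier gene Stard4 (-1.10, adjusted p = 0.0054). Fatty acid synthesis genes, many of them targets of the related SREBP1, were called lower in 3 of 10 cases with exoCDN2 (Fads1 -1.20, Scd1 -1.29 and Scd2 -1.03; median -0.84) and in 8 of 10 with CDN2 20 µg (median -1.71), beside 2.48% and 10.6% of all genes. With CDN2 20 µg Fads1 (-1.26), Scd2 (-1.78), Fasn (-2.25) and Acly (-1.56) had the smallest p.

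A few genes of oxysterol handling were called higher in the same tumors, where 8.87% (exoCDN2) and 20.0% (CDN2 20 µg) of all genes were. Of 6 tested oxysterol genes, Ch25h and Hsd3b7, which acts on oxysterols further along the bile acid route, were called higher with both forms, Hsd3b7 by 1.11 with exoCDN2 (adjusted p = 0.0014) and by 1.42 with CDN2 20 µg (adjusted p = 0.00013). LXR receptors respond to oxysterols and drive cholesterol export. Of 9 LXR receptor and target genes, 3 were called higher with exoCDN2, the receptor Nr1h3 (2.13, adjusted p = 0.00092) and the exporters Abcg1 (2.45, adjusted p = 0.00075) and Abca1 (1.27, adjusted p = 0.003). With CDN2 20 µg Nr1h3 (2.98, adjusted p = 6.6e-05) and Abcg1 (2.41, adjusted p = 0.00032) were called, and Abca1 (0.98, adjusted p = 0.0049) passed the p alone. Nr1h2, the other receptor gene, was called in neither (0.21, adjusted p = 0.39, and 0.40, adjusted p = 0.045). The medians of the 9 genes were 0.65 and 0.24, and 2 of 9 with CDN2 20 µg is close to the share of all genes called higher. The summed level of the 9 was not higher in the treated tumors. It was 1279 and 1549 CPM with PBS, 1260 and 1201 with exoCDN2, and 1079 and 1266 with CDN2 20 µg.

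Markers of tumor and infiltrating cells moved with the same 2-dose groups, and their part in the sterol result was not tested. Their counts stand beside 8.87% of all genes called higher and 2.48% called lower with exoCDN2, and 20.0% and 10.6% with CDN2 20 µg. Melanocyte genes (Pmel, Mlana, Tyr, Tyrp1, Dct, Sox10 and Mitf) summed to 23531 and 23954 CPM with PBS, 15205 and 16330 with exoCDN2, and 6995 and 12733 with CDN2 20 µg. With exoCDN2 0 of 7 were called by edgeR and 2 passed the adjusted p without a ratio limit (median -0.50), and with CDN2 20 µg 4 of 7 were called lower (median -1.35). Proliferation genes (Mki67, Top2a, Ccnb1, Cdk1 and Birc5) were called lower in 3 of 5 cases (median -1.07) and 4 of 5 (median -1.60), with summed levels of 845 to 1219 CPM with PBS, 458 to 701 with exoCDN2 and 306 to 405 with CDN2 20 µg. After 1 dose the melanocyte medians were 0.02 to 0.04 in the 4 treatments, with 1 of 7 genes called lower with CDN2 20 µg and 0 in the other 3. Of all 16927 genes tested, 72 were called lower after 1 dose of exoCDN2, 150 with CDN2 20 µg and 105 with CDN2 100 µg. Called higher in these single-dose comparisons were 2.20%, 2.26% and 1.82% of genes. Other lists did move after 1 dose, when Ch25h was higher, and their part in that was not tested either. Monocyte and neutrophil genes were called higher in 2 of 6 cases with exoCDN2 (median 2.76) and 1 of 6 with CDN2 20 µg (median 1.77), and 1 of 6 was called lower with CDN2 100 µg (median 1.14). Their summed level was 15.2 to 25.4 CPM with PBS, 44.3 to 67.0 with exoCDN2, 18.5 to 41.7 with CDN2 20 µg and 16.2 to 24.7 with CDN2 100 µg. Endothelial markers were called lower in 4 of 5 cases with CDN2 20 µg, at 30.1 to 30.5 CPM against 80.5 to 84.5 with PBS, and T and NK cell markers in 3 of 7 with CDN2 100 µg, at 1.32 to 1.56 against 6.97 to 9.18. No gene of the other 6 cell type lists or of the proliferation list was called in the 4 single-dose treatments.

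After 2 doses monocyte and neutrophil genes (Ly6c2, Ccr2, S100a8, S100a9, Csf3r and Retnlg) were called higher in 6 of 6 cases with both forms, from 7.82 to 13.7 CPM in PBS to 217 to 386 with exoCDN2 and 367 to 1235 with CDN2 20 µg. The 2-dose counts here stand beside 8.87% (exoCDN2) and 20.0% (CDN2 20 µg) of all genes called higher, and 2.48% and 10.6% called lower. Macrophage markers were called higher in 2 of 7 cases with exoCDN2 and 5 of 7 with CDN2 20 µg, with 1 called lower, at 168 to 186, 325 to 474 and 391 to 491 CPM. T and NK cell markers were higher in 6 of 7 and 5 of 7, at 1.10 to 2.12, 27.7 to 37.2 and 7.04 to 10.3 CPM, and fibroblast markers in 2 of 5 and 3 of 5, at 345 to 346, 432 to 977 and 836 to 1681 CPM. Skeletal muscle markers were called in 0 of 4 cases with exoCDN2 and called higher in 3 of 4 with CDN2 20 µg, where they reached 1529 and 2955 CPM against 141 and 258 in PBS. Of dendritic cell and endothelial markers 0 of 5 were called with exoCDN2 and 1 of 5 was called lower with CDN2 20 µg, and of adipocyte markers 1 of 4 was called lower with exoCDN2 and 0 of 4 with CDN2 20 µg. Every gene of these lists had counts in all 6 tumors. Keratinocyte and sebocyte markers were called in 0 of 5 tested cases with either form and summed to at most 78.1 CPM in these tumors, with Mc5r at 0 in 5 of the 6.

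The 2 tumors of each group were also compared with each other. In the exoCDN2 2-dose group the tumor with more Ch25h, replicate 1, was the lower one for 7 of 7 sterol genes, with a sterol median of 11.84 against 12.59. The share of all genes lower in that tumor was not computed. It also held more monocyte and neutrophil (386 against 217 CPM) and fibroblast marker counts (977 against 432 CPM). Keratinocyte and sebocyte (78.1 against 0.0568 CPM), macrophage (474 against 325) and T and NK cell markers (37.2 against 27.7) were higher in it too. Melanocyte genes were lower in it (15205 against 16330 CPM). Its endothelial markers were alike (96.4 against 98.3 CPM), and the part of such differences was not tested. In the CDN2 20 µg 2-dose group the tumor with more Ch25h was the lower for 5 of 7, with medians of 11.40 and 11.50. Among the other 7 groups the number ran from 0 (unloaded EVs) to 6 (CDN2 20 µg after 1 dose). Over all 18 tumors the Pearson correlation of Ch25h with single sterol genes lay between -0.494 (Idi1) and -0.652 (Sqle), a description across tumors that share treatments and libraries. Counted from the most positive, Idi1 and Sqle ranked 15331 and 16604 among 17109 genes, so other genes had more negative values. Hmgcs1 correlated more closely with Idi1 (0.916), Lss (0.912), Sqle (0.897), Srebf2 (0.892) and Insig1 (0.806) than with Fdft1 (0.437). The genes most like Hmgcs1 were Map3k15 (0.961), Immt (0.958), Abcd3 (0.957), Dpy19l1 (0.955) and Ift80 (0.954).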

How the data were processed

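Tumor mRNA was sequenced as paired reads. The authors filtered reads, aligned them to GRCm38 (mm10) with OSA in OmicSoft ArraySuite and quantified genes with RSEM on an Ensembl gene model, and the deposited table holds RSEM expected counts per tumor. These were rounded to whole numbers, and GENCODE gave symbols for 50376 of 50600 rows. Genes with at least 10 counts in at least 2 tumors and a total of at least 15 were tested with edgeR 4.0.16 (R 4.3.3; TMM factors, quasi-likelihood F test, Benjamini-Hochberg adjustment) in 1 fit of 16 tumors in 8 groups. The 2 tumors without a labelled amount entered a fit of 18 tumors and 17110 genes. Levels were divided by DESeq2 1.42.0 size factors, with 1 added before log2, and FPKM was computed from the summed exon length. The members and lists were chosen with earlier results of these data known. The 8 genes are named in every main comparison, at most the 4 genes with the smallest p of each other list, and the 5 genes most like Ch25h and Hmgcs1. Further names were added after the values were seen. Some genes of these lists are not reported here and were left out of the lists' counts and medians. The labels do not say that the tumors of a group came from separate mice, so p-values measure only a spread between samples. That spread was estimated from all groups of the fit together, not from the 2 groups compared alone. The 2-dose CDN2 20 µg pair spread more widely than the other groups for Ch25h (log2 SD 1.16) and Sqle (log2 SD 1.04). An exact two-sided test of 2 against 2 cannot go below p = 0.333. The scripts were tested on simulated counts. Alternatives were DESeq2, RLE factors, no count filter, other sets of tumors in the fit, pooled PBS tumors, no ratio limit, a replicate block and leaving out each tumor.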

Additional observations from a re-analysis of the deposited data

Results flagged for a closer look

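The effect of CDN2 20 µg on the sterol genes differed between the second and the first dose, each taken relative to PBS, by a test of the difference itself in the edgeR fit. The log2 difference of differences was -1.94 for Hmgcs1, -1.63 for Sqle, -1.12 for Idi1, -1.70 for Insig1, -1.65 for Srebf2, -1.88 for Lss and -1.26 for Fdft1, with adjusted p from 0.0027 (Lss) to 0.037 (Sqle). All 7 kept this direction without either tumor of the 2-dose CDN2 20 µg pair, with Sqle at -1.09 without replicate 1 and -2.66 without replicate 2. The PBS and single-dose tumors were not left out of this contrast in turn. Single-dose and 2-dose tumors were also different sets with their own PBS groups, and no treated tumor was followed over time.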

How the results depend on the processing

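Each group held 2 tumors, and arms left with 1 tumor borrowed the spread of the others. With single tumors left out, Ch25h after 1 dose ranged from 2.08 to 2.37 with exoCDN2 and from 1.64 to 2.04 with CDN2 20 µg, never called. For CDN2 100 µg, Ch25h became called with DESeq2 (1.73), no count filter (1.71), only the groups compared (1.73), all 18 tumors (1.72) and PBS tumors pooled (2.24), and for the unlabelled amount with no filter (1.22). The cause was not tested. With the PBS tumors of both schedules pooled, the median of the 7 sterol genes was -0.26 for unloaded EVs, -0.44 for exoCDN2, -0.17 for CDN2 20 µg and -0.34 for CDN2 100 µg after 1 dose and -1.53 for CDN2 20 µg after 2. Left-out tumors moved it from -0.11 to 0.13 (CDN2 20 µg) and from -0.24 to -0.18 (CDN2 100 µg) after 1 dose, and from -1.91 to -1.42 (CDN2 20 µg) after 2. For 2 doses of exoCDN2 the median was -0.93 in the main fit and ran from -1.1 to -0.66 over all alternatives. Enzymes called lower with 2 doses of exoCDN2 numbered 8, but 4 with PBS pooled, 14 with no ratio limit and 1 to 13 with a tumor left out.

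Directions turned only for sterol genes that were not called, apart from Ch25h between the 2-dose agonist groups, which was not called either. With PBS pooled, Idi1 was -0.05 with exoCDN2, Hmgcs1 -0.11 and Srebf2 -0.12 with CDN2 20 µg, Insig1 -0.07 with CDN2 100 µg, and Hmgcs1 0.02, Srebf2 0.02 and Fdft1 0.24 with the unlabelled amount. With a tumor left out, ranges crossed 0 for unloaded EVs (Sqle -0.13 to 0.02, Srebf2 -0.14 to 0.01, Fdft1 -0.06 to 0.01), for 1 dose of CDN2 20 µg (Hmgcs1 -0.09 to 0.18, Srebf2 -0.11 to 0.20, Sqle -0.25 to 0.08, Lss -0.15 to 0.13) and CDN2 100 µg (Insig1 -0.16 to 0.37), for the unlabelled amount (Hmgcs1 -0.45 to 0.15, Idi1 -0.41 to 0.25, Sqle -0.41 to 0.01, Srebf2 -0.38 to 0.19, Fdft1 -0.22 to 0.16), and for exoCDN2 against CDN2 20 µg after 2 doses (Ch25h -1.02 to 0.52, Fdft1 -0.14 to 0.02; chosen after seeing the data).

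Deviations of same-numbered tumors correlated between -0.136 and 0.308, so the numbers were not taken as pairs. With a replicate block no call of the 8 genes against PBS changed, Ch25h after 2 doses being 2.87 with exoCDN2 and 3.29 with CDN2 20 µg. For the latter comparison the block called 5092 genes and the crossed block, chosen after seeing the data, 5185, with 5177 in the fit without a block. That number was not stable under every setting. With only the groups compared in the fit 3060 genes were called, 739 of them lower, against 1786 lower in the main fit. The shares of all genes given above for this comparison are those of the main fit.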
